A study of Mus musculus with 20 samples.

Results

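Ribosomal protein processed pseudogenes are copies of ribosomal protein mRNAs that were written back into the genome. The genes described here were those of the count table that GENCODE types as processed_pseudogene, that carry a ribosomal protein symbol ending in -ps with or without a number, and that held at least 10 counts summed over the 20 samples. This rule took 163 of the 57010 genes of the table. It left out 116 pseudogenes of the same type and symbol, of which 78 had 0 counts in every sample. The 163 members named 54 parent genes and lay on 20 chromosomes. The members were thus selected on their summed count, so levels near the threshold are a description only. Just inside it were Rps19-ps11, Rpl17-ps2 and Rpsa-ps8 with 10 counts each, and all 10 of Rps19-ps11 came from 7c liver replicate 2. Just outside it were Rps10-ps3 and Rps12-ps26 with 9 counts and Rpl9-ps8 with 8.

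A processed pseudogene arises when a spliced mRNA is reverse transcribed and inserted at a new place, so that it lacks the introns of its parent and usually its promoter. Ribosomal proteins, the protein parts of the small (Rps) and large (Rpl) ribosomal subunits, are made from short and very abundant mRNAs and are among the families with the most such copies in mammalian genomes. Young copies still carry nearly the whole sequence of the parent mRNA, and a short read from one can then match the other.

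Livers and kidneys came from 10 males of the UM-HET3 stock, which is genetically heterogeneous, so that each mouse has its own mixture of alleles. In the 7c group, 6 mice received repsox, tranylcypromine, DZNep, CHIR99021, forskolin and TTNPB at 0.1 mg/kg/day each and valproate at 1 mg/kg/day, and in the vehicle group 4 mice received 50% DMSO and 50% PEG300. Delivery was by osmotic minipump for 28 days, from 12 months of age, and all mice were housed alone. Each mouse gave 1 library per tissue, and the total count was 28383359 to 34153084 in liver and 27855849 to 64872451 in kidney. Hepatocyte markers summed to at least 74025 CPM (counts of a gene relative to the library size, scaled within a tissue by the TMM method) in each liver, and kidney tubule markers to at least 35360 CPM in each kidney. In the kidneys the hepatocyte markers summed to 2182 to 2969 CPM, and in the livers the tubule markers to at most 1.76 CPM. The part of the hepatocyte markers in the kidney values was not tested. In 7c liver replicate 6, 5 skeletal muscle markers summed to 606 CPM, and their part in its values was not tested.

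The members held few counts, and these lay mostly on copies nearly identical to a parent. Their summed total was 169959 counts, of which the 10 members with the most counts held 53.2%. Against the annotated parent transcript in GRCm39, 161 members could be aligned over at least 50% of their length, with a median identity of 98.17%. The exceptions, Rps7-ps2 and Rpl18-ps1, were given no identity. The 9 members that equalled their parent at every aligned base held 24.9% of the counts with a median of 5826 counts a member. At an identity from 99% to under 100%, 41 members had a median of 664 counts, and below 95% the median of 22 members was 35.5. Across the 161 members, which share libraries and in part parents, Spearman's rho between identity and summed count was 0.675, given as a description. Over all 163, the rho between the member's count and the summed count of its parent was 0.0483.

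**Figure D1:**
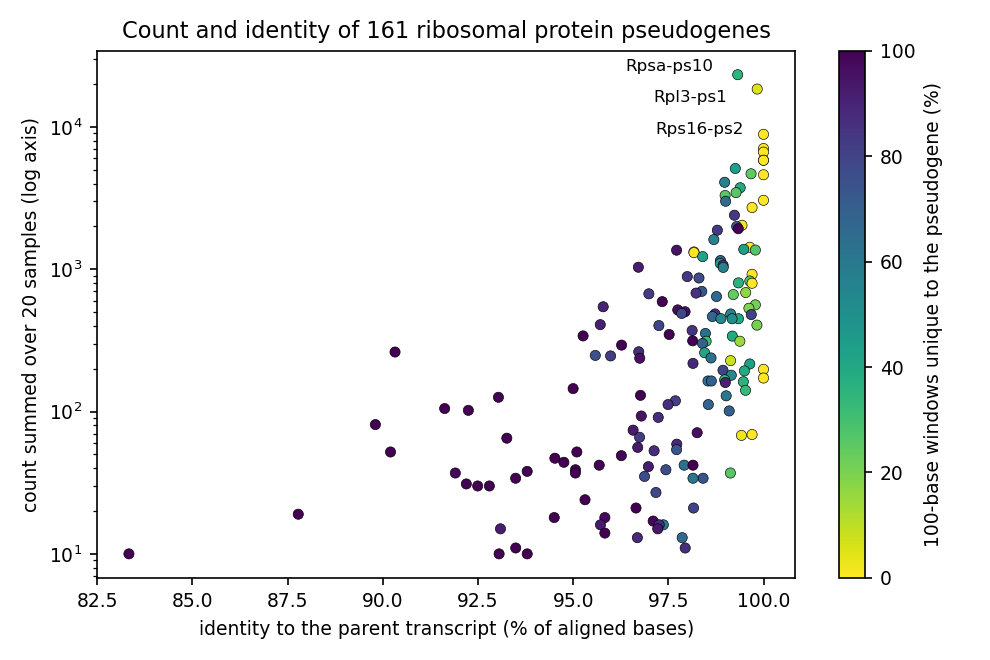
Count summed over the 20 samples (log axis) against identity to the parent transcript in percent of aligned bases, one point per pseudogene for 161 pseudogenes, coloured by the share of 100-base windows unique to the pseudogene. The points rise towards the right, where the 9 copies at 100% identity reach 8874 counts, below Rpl3-ps1 (18458) and Rpsa-ps10 (23276).

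How far a read could be placed differed between members. A window of 100 bases was called unique if it occurred once in GRCm39 on either strand and in no transcript of a gene lying elsewhere. In 16 members no window was unique, and these held 29.9% of the member counts, while the 34 members in which every window was unique held 2.95%. The sequences of 3 abundant members are shown to make this visible, each as a stretch of 90 bases beside the same stretch of its parent, read from GRCm39 with GENCODE vM39, with capitals at the bases that differ.

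Rpsa-ps10 (chr3:149778961-149779050, minus strand): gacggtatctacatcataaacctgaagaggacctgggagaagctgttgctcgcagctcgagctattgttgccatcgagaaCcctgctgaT
Rpsa: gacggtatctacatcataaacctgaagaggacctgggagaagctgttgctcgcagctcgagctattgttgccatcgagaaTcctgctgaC
Rpl3-ps1 (chrX:13068811-13068900, plus strand): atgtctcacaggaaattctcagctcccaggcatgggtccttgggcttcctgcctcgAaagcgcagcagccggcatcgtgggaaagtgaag
Rpl3: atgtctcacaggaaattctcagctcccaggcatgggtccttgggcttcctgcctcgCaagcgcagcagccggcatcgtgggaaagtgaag
Rps16-ps2 and Rps16 (chr5:129205492-129205581 for the pseudogene, minus strand): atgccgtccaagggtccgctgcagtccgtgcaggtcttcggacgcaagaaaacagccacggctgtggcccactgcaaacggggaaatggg

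Rps16-ps2 had no base that differed from Rps16, whose protein sits in the small subunit, over its 441 bases, and yet it was listed with 8874 counts. Rpl3-ps1 differed from Rpl3, a core protein of the large subunit, at 2 aligned bases, and 5.22% of its windows were unique. Rpsa-ps10 differed from Rpsa at 6 bases over 885, written from the parent to the pseudogene and counted from 1 at the first base of the Rpsa coding sequence: C25A, which changes an amino acid, and T210C, C219T, C345G, C696T and G858A, which do not. Of these, T210C and C219T are the capitals of the stretch above, where they are T81C and C90T counted from its first base. In Rpsa-ps10 34.9% of windows were unique, and its reading frame was open over all 295 codons of Rpsa. An open frame of the full parent length was found in 83 of the 163 members, which held 79.6% of the member counts.

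By position, 100 members lay between the genes of the table and 40 in an intron of a gene on the opposite strand. A further 13 lay in an intron of a gene on their own strand, 5 overlapped an exon on their own strand and 5 an exon on the opposite strand. Rps16-ps2 overlaps an exon of Adgrd1, an adhesion G protein-coupled receptor gene, on the opposite strand, and Rpl10a-ps1 an exon of Akr1cl on its own strand. Rpsa-ps10 lies at chr3:149778295-149779179 on the minus strand and overlaps an exon of the lncRNA Gm64703 on the opposite strand, a gene not counted in the table. The strand setting of the counting is not given in the sources used here, so reads of a member and of an overlapping gene cannot be told apart.

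The counts of members were mostly even numbers. Among members with at least 10 counts in a sample, 74.1% to 97% of the counts were even, with a median of 82.7% over the 20 samples. For the parent genes the share was 42.6% to 66.7%, for other genes of a single exon 70.8% to 81.2%, and for genes of several exons 58.3% to 68.2%. Rpsa-ps10 had an even count in 18 of 20 samples and Rps6-ps4 in 19, whereas Rps16-ps2 had one in 10. The sources used here do not say whether reads or read pairs were counted.

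Rpsa-ps10, a copy of the gene for a small subunit protein also known as the laminin receptor, was the member with the most counts and varied most between the treatment groups. In vehicle livers it stood at 65.4, 4.76, 76.2 and 80.2 CPM in replicates 1 to 4, and in the 6 livers of the 7c group its lowest, median and highest levels were 5.13, 5.61 and 7.18 CPM. In vehicle kidneys it stood at 105, 27.5, 90.2 and 104 CPM, and in the 7c kidneys at 7.16, 11.8 and 29.9 CPM. Vehicle replicates 1, 3 and 4 were high in both tissues and vehicle replicate 2 was low in both, so that the groups overlapped: vehicle liver replicate 2 lay below all 7c livers, and 7c kidney replicate 5 lay above vehicle kidney replicate 2.

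The parent Rpsa was ordered the other way in liver. Its level was 277, 365, 294 and 359 CPM in the vehicle livers and 385, 423 and 519 CPM (lowest, median and highest) in the 7c livers, so that every 7c liver lay above every vehicle liver, an order found for 0.32% of the genes tested in liver. In kidney the vehicle samples had 378, 1156, 332 and 419 CPM of Rpsa and the 7c samples 471, 678 and 1123 CPM. Of the counts of both genes together, Rpsa-ps10 held 19.1%, 20.6% and 18.3% in vehicle livers 1, 3 and 4 and 21.7%, 21.4% and 19.9% in the same-numbered kidneys. In vehicle replicate 2 it held 1.29% in liver and 2.33% in kidney, and in the 7c group 1.30% to 1.58% in liver and 1.5% to 2.60% in kidney. The share therefore took values in 2 ranges with none between 2.60% and 18.3%, and the kidneys that stood highest in Rpsa-ps10 among the low range, vehicle replicate 2 and 7c replicate 5, were also the kidneys with the most Rpsa. A split by replicate number in both tissues was not particular to Rpsa-ps10. It was also seen for Rpl3-ps1, there across both treatment groups, as given below.

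**Figure D2:**
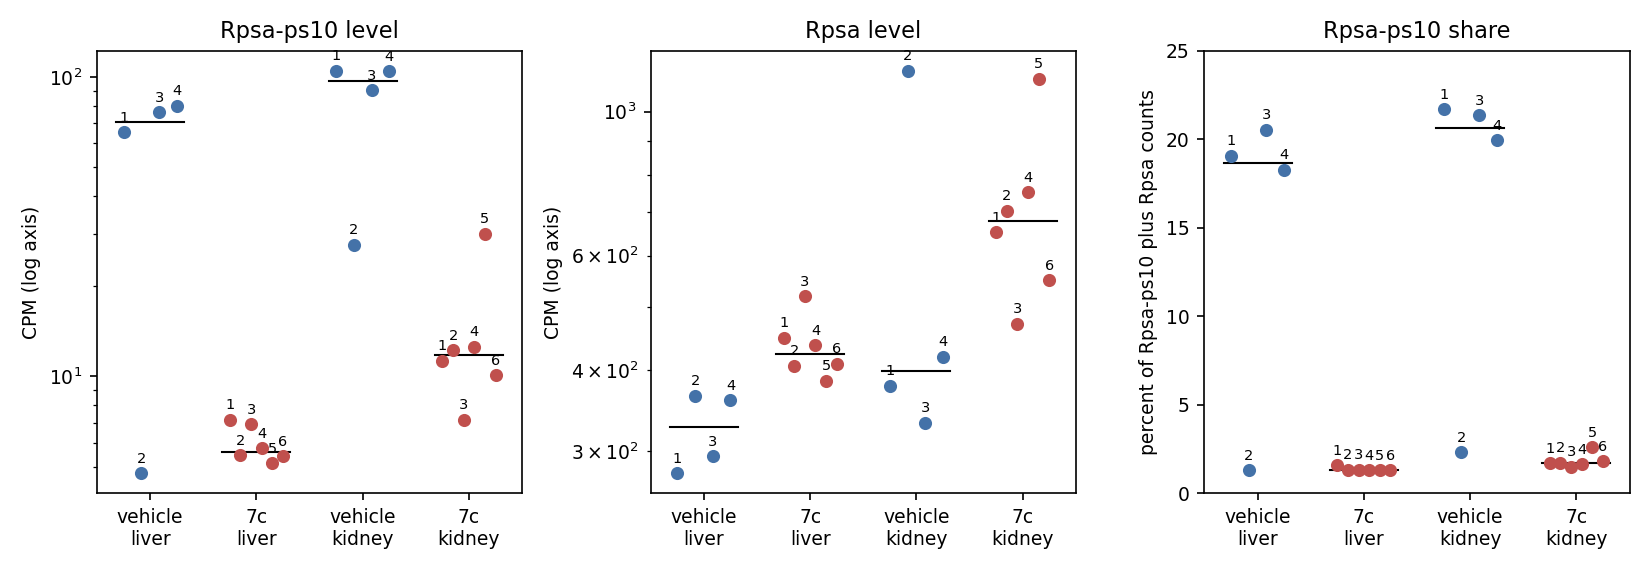
Level of Rpsa-ps10 and of Rpsa in CPM (log axes) and the share of Rpsa-ps10 in the counts of both in percent, for each of the 20 samples by group, with the replicate number beside each point and a bar at the median. The share is 18.3% to 21.7% in vehicle replicates 1, 3 and 4 of both tissues and 1.29% to 2.60% in all other samples.

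In a test of 7c against vehicle across all genes (edgeR's quasi-likelihood test, Benjamini-Hochberg adjustment, threshold 0.05), Rpsa-ps10 was lower in 7c by 3.24 ± 0.49 (SE) on the log2 scale in liver, adjusted p = 0.120, and by 2.56 ± 0.41 in kidney, adjusted p = 0.186. Neither passed the threshold. An exact two-sided permutation test of its mean log2 CPM alone gave p = 0.0333 in liver and p = 0.00952 in kidney, where the smallest p that 210 splits allow is 0.00476. Since Rpsa-ps10 was picked out with these levels known, these p-values describe the gene and are no independent evidence. Leaving out vehicle replicate 2 moved the edgeR adjusted p to 2.24e-08 in liver, with a log2 fold change of -3.62, and to 0.0247 in kidney, with -2.85. Without 7c kidney replicate 5 the kidney value was -2.94 with an adjusted p of 0.0194. Without vehicle liver replicate 1, 3 or 4 the exact permutation p in liver was 0.0833.

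Rpsa itself differed by 0.42 ± 0.11 (SE, log2) in liver and 0.31 ± 0.34 in kidney and passed in neither, with an edgeR adjusted p of 0.999586 and 0.996689. For the summed CPM of Rpsa-ps10 and Rpsa, the 4 vehicle livers had 343, 370, 371 and 439 CPM and the 7c livers 390, 428 and 526 CPM (lowest, median and highest). The mean difference of the log2 sums was 0.21 in liver (exact permutation p = 0.0762) and 0.22 in kidney (exact permutation p = 0.533). For Rpsa alone the mean difference of log2 CPM was 0.43 in liver (exact permutation p = 0.00476, the smallest that 210 splits allow). In kidney it was 0.46 (exact permutation p = 0.281). The difference was thus smaller for the sum than for Rpsa alone in both tissues, although Rpsa held most of the sum in every sample. Rpsa was looked at because of Rpsa-ps10, so these p-values are a description. The other 8 Rpsa pseudogenes among the members had 10 to 1152 counts in all samples together, against 23276 for Rpsa-ps10, and an identity to Rpsa of 93.1% to 98.9%.

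A gene was tested in a tissue if 50% or more of its samples held 10 counts or more, which 64 of the 163 members did in liver, 100 in kidney and 63 in neither. In liver, 40 of the 64 tested members were higher in 7c by fold change and 24 lower, and 0 passed the threshold of edgeR's test, as against 0.00666% of all genes tested. At an unadjusted p under 0.05 there were 2 members of 64, where 3.76% of all genes reached it. DESeq2, edgeR's likelihood ratio test and edgeR without the filter called 1 member, Rpsa-ps10, where they called 0.04%, 0.0466% and 0.0152% of all genes, and limma-voom called 0 members and 0.00666% of all genes. The median log2 fold change was 0.06 for members and 0.00 for all genes tested, and for the 54 parents, of which 46 were higher and 0 passed, it was 0.10.

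In kidney, 47 of the 100 tested members were higher in 7c and 53 lower, again with 0 past the threshold of edgeR's test (all genes, 0%). At an unadjusted p under 0.05 there was 1 member, against 2.61% of all genes, and DESeq2, the likelihood ratio test and edgeR without the filter called 1 (Rpsa-ps10) and 0.101%, 0.0789% and 0.00923% of all genes, while limma-voom called 0 members and 0.0113% of all genes. The median log2 fold change was -0.02 for members, -0.01 for all genes and 0.10 for the parents, 48 of 54 of which were higher. Without the kidneys of highest parent level, vehicle replicate 2 and 7c replicate 5, the median over members was 0.19, with -0.00 for all genes, and 1 member (Rpsa-ps10) passed, with a log2 fold change of -3.23, where 0.0168% of all genes passed. Adipocyte markers, 6 in number, were fully apart between the groups in kidney, with a sum of 13.5 to 68.2 CPM in 7c and 0.557 to 13.3 CPM in vehicle samples, and their part in the kidney values was not tested. Groups of 7c and vehicle samples were fully apart for 0 tested members in each tissue, compared with 0.719% of all genes in liver and 0.716% in kidney.

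**Figure D3:**
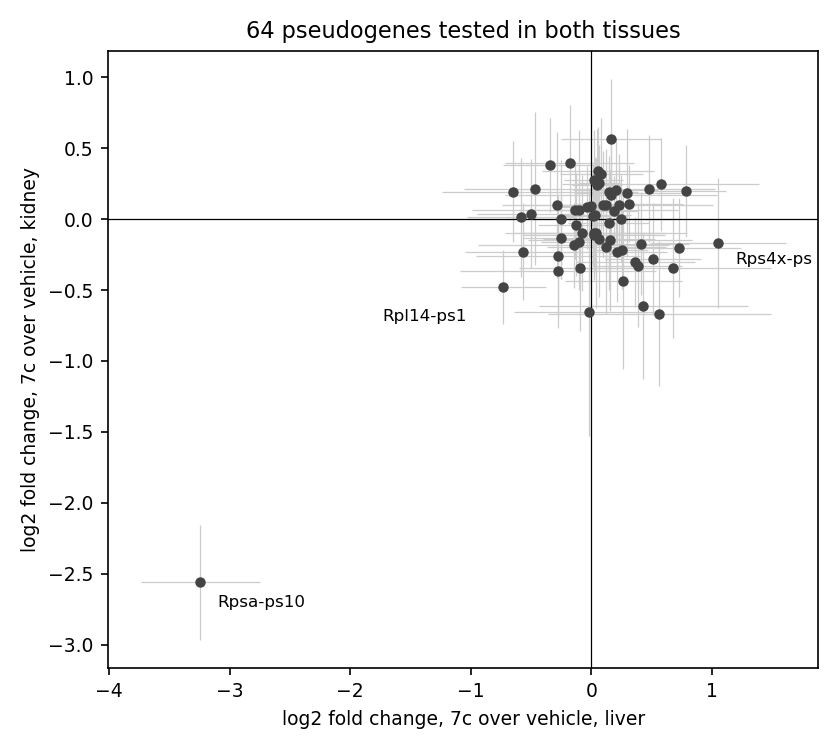
Log2 fold change of 7c over vehicle in kidney against that in liver for the 64 pseudogenes tested in both tissues, with bars of 1 standard error from the fit. Rpsa-ps10 lies apart at -3.24 in liver and -2.56 in kidney, while the liver values of the other points span -0.73 to 1.05 and their kidney values -0.67 to 0.56.

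The members with the next lowest p-values in liver did not pass. Rpl39-ps1, a copy of the gene for one of the smallest proteins of the large subunit, lies at chr15:102543473-102543623 and overlaps an exon of Gm14541, a gene not counted in the table, on the opposite strand. Its vehicle livers had 1.48, 1.98, 1.17 and 0.94 CPM and its 7c livers 1.69, 2.31 and 3.35 CPM (lowest, median, highest), with 3 of the 6 above the vehicle range. The log2 fold change was 0.79 ± 0.33 (SE), edgeR adjusted p = 0.999586. Rps4x-ps, a copy of the X-linked gene for a small subunit protein, had 0.43, 0.23, 0.23 and 0.23 CPM in vehicle livers and 0.27, 0.48 and 1.15 CPM in 7c livers. That is 8 to 13 counts in a vehicle library and 8 to 34 in a 7c library, and the fold change was 1.05 ± 0.56 on the log2 scale. Rpsa-ps12 had 4 to 10 counts in the vehicle livers and 8 to 14 in the 7c livers, and 5 of the 6 lay above the vehicle range in CPM, with a log2 fold change of 0.73 ± 0.51.

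Rpl14-ps1, a copy of a large subunit gene inside an intron of Trpm4 on the opposite strand, was among the members of lowest p in both tissues, with an unadjusted p above 0.05 in each. Its vehicle livers had 3.92, 2.18, 3.86 and 7.02 CPM and its 7c livers 1.37, 2.62 and 3.8 CPM. In kidney the vehicle samples had 6.69, 13.4, 6.66 and 7.54 CPM and the 7c samples 4.01, 5.77 and 9.70 CPM, with 5 of the 6 below the vehicle range. The log2 fold change was -0.73 ± 0.35 (SE) in liver and -0.48 ± 0.26 in kidney, with an edgeR adjusted p of 0.999586 and 0.996689. The parent Rpl14 was at -0.04 ± 0.11 in liver and 0.11 ± 0.37 in kidney.

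In kidney, Rps6-ps1, a copy of the gene for the small subunit protein that S6 kinases phosphorylate, had 0.84, 0.56, 0.27 and 0.56 CPM in vehicle samples and 0.67, 0.87 and 1.35 CPM in 7c samples, with a log2 fold change of 0.68 ± 0.37. Rpl15-ps6 and Rps19-ps3, copies of a large and a small subunit gene, were at 0.19 ± 0.14 and 0.56 ± 0.43. None of these 3 passed. The difference between the tissues in the response to 7c was tested as an interaction in the 64 members that passed in both. No member passed in edgeR's test (0 of 64, against 0.00706% of all genes, and 0 at an unadjusted p under 0.05, against 2.49%), nor in DESeq2 or limma-voom. For Rpsa-ps10 the kidney minus liver difference was 0.70 ± 0.70 on the log2 scale, and the members with the lowest p were Rpsa-ps12 (-0.93 ± 0.53) and Rps4x-ps (-1.21 ± 0.69).

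After Rpsa-ps10 the most abundant members had like mean levels in both treatment groups. Rpl3-ps1 averaged 25.2 CPM in liver and 27.4 CPM in kidney, but varied by sample. In vehicle replicate 1 and 7c replicates 3 and 6 it had 474, 570 and 414 counts in liver, and 660 to 1120 counts in the other livers. The same-numbered kidneys had 618, 604 and 707 counts, and the other kidneys 824 to 1896. Rps16-ps2 averaged 11.7 CPM in liver and 13.6 CPM in kidney. Rps6-ps4, in an intron of 2600014E21Rik on the opposite strand and identical to Rps6 at all aligned bases, averaged 11 CPM in liver and 8.43 CPM in kidney. Rps18-ps5 was next in liver with 7.00 CPM, while Rpl10a-ps1 (13.1 CPM) and Rpl28-ps1 (11.3 CPM), both without a single unique window, were next in kidney. The log2 fold changes of these 6 with 7c lay between -0.04 and 0.26 and none passed.

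Relative to its parent, a single member usually held a small part of the counts. Among tested members the median share of member plus parent counts was 0.533% in liver and 0.449% in kidney, and for those without a unique window it was 2.25% and 2.57%. Rps16-ps2 held 4.52% to 6.73% of its own and the Rps16 counts in liver and 5.68% to 7.79% in kidney. Rpl3-ps1 held 5.56% to 13.6% in liver and 4.70% to 9.39% in kidney. Rps10 was the exception among parents: it had 1712 counts over all samples, fewer than the 5232 of its 3 pseudogene members, and Rps10-ps2 alone held a median of 58.5% of its own and the Rps10 counts in liver and 67.9% in kidney. The treatment of reads with several positions is not given, and its part in the low count of Rps10 was not tested.

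In sum over all 163, the members held 1.57% ± 0.13 (SD, n = 6) of the member and parent counts in 7c livers and 2.14% ± 0.42 (n = 4) in vehicle livers. In kidney they held 1.91% ± 0.12 (n = 6) in the 7c and 2.71% ± 0.44 (n = 4) in the vehicle group. Without Rpsa-ps10 the shares were 1.51% ± 0.13 and 1.58% ± 0.09 in liver and 1.82% ± 0.11 and 1.95% ± 0.03 in kidney. By sample, the livers then overlapped, at 1.36% to 1.71% in 7c and 1.47% to 1.66% in vehicle. The kidneys did not, at 1.64% to 1.91% in 7c and 1.92% to 1.99% in vehicle, but the nearest values were 1.912% and 1.921%. Leaving out Rpsa-ps10 was chosen after seeing the data, and how often such a sum separates the groups was not tested.

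The share hardly varied while the level did. In vehicle kidney replicate 2 and 7c kidney replicate 5, the 54 parents summed to 21353 and 21890 CPM, against 9367 to 14547 CPM in the other 8 kidneys. The members without Rpsa-ps10 summed to 418 and 427 CPM there and to 181 to 283 CPM in the other 8. As a share of member and parent counts this was 1.92% and 1.91%, inside the 1.64% to 1.99% of the others of both treatment groups. In the same kidneys the tubule markers summed to 62319 and 70899 CPM (35360 to 49134 in the others), the leukocyte markers to 356 and 477 CPM (174 to 382) and the blood cell markers to 1239 and 2160 CPM (292 to 2130). Mitochondrial genes held 6.73% and 3.98% of their counts (5.93% to 9.15% in the others) and lncRNAs 0.739% and 0.716% (0.657% to 0.728%). The part of these in the result was not tested. In these bulk samples, more cells of a type and more RNA per cell cannot be told apart.

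**Figure D4:**
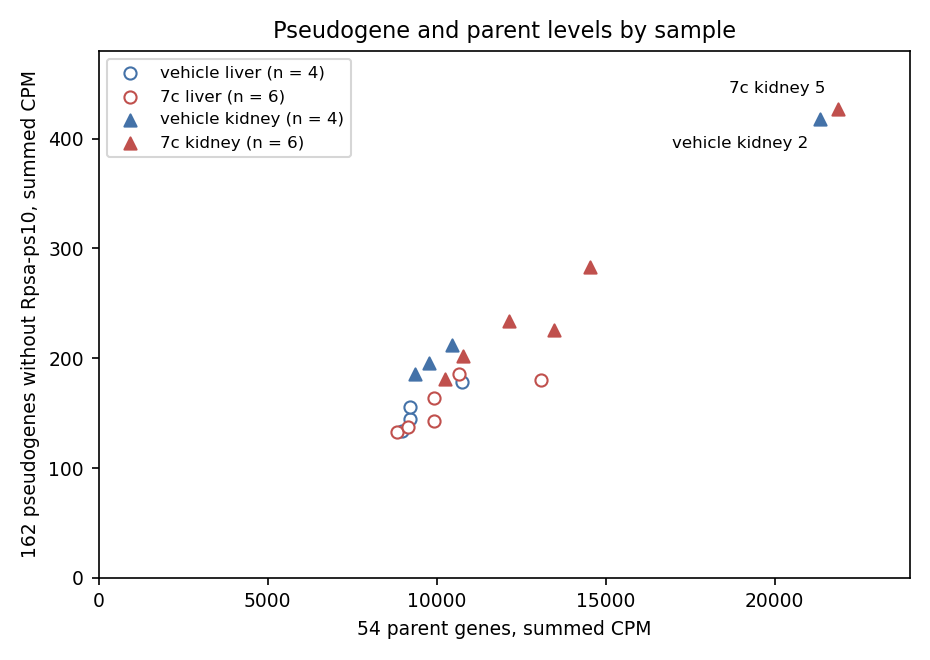
Summed CPM of the 162 pseudogenes other than Rpsa-ps10 against the summed CPM of the 54 parent genes, one point per sample, circles for liver and triangles for kidney, red for 7c and blue for vehicle. Vehicle kidney 2 and 7c kidney 5 stand apart at 21353 and 21890 CPM of the parents, and the pseudogenes are at 418 and 427 CPM there.

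Single members followed this in kidney. The residual standard deviation within treatment of the log2 ratio of member to parent was below that of the member's own log2 CPM for 82 of the 100 tested members, and for all 14 without a unique window, with a median of 0.649 for the level and 0.282 for the ratio. Without the 2 kidneys named above it was below for 54 of 100 and for 8 of 14, so the pattern rests on those libraries. In liver the ratio varied less than the level for 32 of 64 members. The tested members that varied most within treatment were Rps15a-ps5, Rps2-ps6 and Rpl3-ps2 in liver, with 0 to 48 counts a sample, and Rps12-ps19, Rpl26-ps6 and Rpl17-ps9 in kidney, with 0 to 46.

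Between the tissues, vehicle kidney was compared with vehicle liver in 90 members, with the 8 vehicle samples scaled together. By fold change 71 members were higher in kidney and 19 lower, and 6 passed as higher and 2 as lower in edgeR's test, where 27.7% and 25.7% of all genes passed. At an unadjusted p under 0.05 there were 12 members, against 58.4% of all genes. The median log2 difference was 0.51 for members, 0.06 for all genes and 0.49 for 693 other processed pseudogenes. The parents had a median of -0.25, with 42 of 54 lower in kidney and 10 passing as lower. The counts rest on single libraries: without vehicle kidney replicate 2, 0 members passed as higher and 5 as lower of 75 tested, where 52.5% of all genes passed, and the median was 0.18. Without scaling beyond library size, 26 passed as higher and 0 as lower, where 61.2% of all genes passed, and the median moved to 1.09 for members and to 0.66 for all genes. Members low in liver could meet the count minimum through the kidneys alone, as Rps7-ps2 and Rps2-ps5 did, so these counts and medians are a description.

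Rps7-ps2, a pseudogene at chr12:3571922-3573268 named for a small subunit gene, had the largest difference among the members tested, but it was tested only because of its level in kidney and is described here without a test. It had 2, 0, 0 and 0 counts in the vehicle livers and 34, 42, 51 and 50 in the vehicle kidneys, so that the tissues were fully apart. In the 7c mice it had 0 to 15 counts in liver and 31 to 142 in kidney. The ratio of kidney to liver in the vehicle group was 54.9, a description that rests on 177 against 2 counts summed over the libraries. With any single kidney left out Rps7-ps2 no longer met the count minimum.

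The other members that passed as higher were Rps2-ps5, Rpsa-ps12, Rps15-ps2, Rps24-ps3 and Rps15a-ps7. Rps24-ps3, a copy of a gene mutated in Diamond-Blackfan anaemia, had 2.73, 3.39, 2.24 and 1.22 CPM in vehicle livers and 4.00, 8.28, 3.57 and 4.09 CPM in vehicle kidneys. All 4 kidneys lay above the livers, replicate 2 the furthest, and the log2 difference was 1.06 ± 0.39 (SE), edgeR adjusted p = 0.0389. Rps15-ps2 had 0.91, 1.03, 0.98 and 0.65 CPM in liver and 2.10, 5.78, 1.03 and 1.86 CPM in kidney, a log2 difference of 1.59 ± 0.53 (adjusted p = 0.0254). Rps15a-ps7, a copy of a small subunit gene, had 4.38, 3.54, 3.50 and 4.68 CPM in liver and 4.84, 11.9, 5.55 and 6.03 CPM in kidney, a log2 difference of 0.82 ± 0.31 (edgeR adjusted p = 0.0466). Rpsa-ps12 differed by 1.71 ± 0.60. Rps2-ps5 had 2, 2, 6 and 0 counts in the livers and 12, 88, 12 and 15 in the kidneys, and as it too met the count minimum only through the kidneys, its difference has no test here. For these 5 the highest kidney was replicate 2, and without it none passed or could be tested. The calls also depended on other samples: Rps24-ps3 no longer passed without vehicle liver 1, 3 or 4 or vehicle kidney 4, Rps15-ps2 without vehicle liver 1 or 4, Rpsa-ps12 without vehicle liver 1 or 3 or vehicle kidney 4, and Rps15a-ps7 without any 1 of the vehicle livers or vehicle kidney 4. By limma-voom, Rps2-ps5, Rpsa-ps12, Rps15-ps2 and Rps15a-ps7 did not pass, and without the filter Rpsa-ps12 did not. With the replicate number as a block Rps24-ps3 still passed, while Rpsa-ps12, Rps15-ps2 and Rps15a-ps7 did not.

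The members that passed as lower in kidney were Rps6-ps4 and Rpl35a-ps3, both without a unique window. Rps6-ps4 had 12.2, 12.8, 11 and 17.9 CPM in vehicle livers and 6.48, 9.37, 4.00 and 4.74 CPM in vehicle kidneys, with every kidney below every liver and a log2 difference of -1.13 ± 0.28 (SE, edgeR adjusted p = 0.00579). Its parent Rps6 passed in the same direction with -0.67 ± 0.18 (adjusted p = 0.0103). Rpl35a-ps3, a copy of a large subunit gene, differed by -1.17 ± 0.44 (adjusted p = 0.0434) and Rpl35a by -0.96 ± 0.24 (adjusted p = 0.00579). Without vehicle kidney replicate 1, 3 or 4, or vehicle liver replicate 2, 3 or 4, Rpl35a-ps3 no longer passed. It also lost the call with RLE size factors, without the filter and with the replicate number as a block. With library size as the only scaling, Rps6-ps4 was at -0.56 and Rpl35a-ps3 at -0.62 and neither passed.

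**Figure D5:**
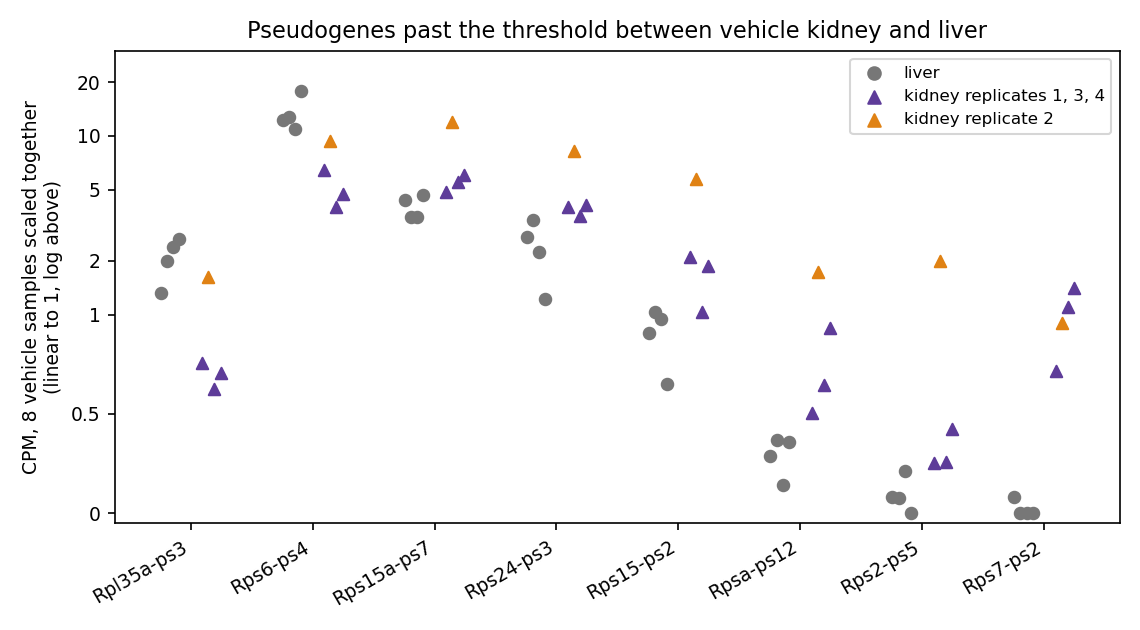
Level in CPM (linear to 1, log above, 8 vehicle samples scaled together) of the 8 pseudogenes that passed between vehicle kidney and vehicle liver, with circles for liver, triangles for kidney and vehicle kidney replicate 2 in orange. Replicate 2 is the highest kidney in all but Rps7-ps2.

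The same-numbered liver and kidney samples were also set beside each other, centred within treatment. Of the 64 members tested in both tissues, 0 had a correlation over 10 numbers past the adjusted threshold in an exact permutation test (all genes, 0%), and 6 had an unadjusted p under 0.05, where 6.99% of all genes did. The lowest p was that of Rpl35a-ps2, with Pearson's r of -0.84 and Spearman's rho of -0.82 (exact permutation p = 0.00631 and 0.00868, adjusted 0.489 and 0.646). The labels do not say that a number marks a mouse.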

How the data were processed

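The authors aligned stranded libraries of polyadenylated RNA to GRCm39 with STAR 2.7.11b and counted reads on genes with featureCounts 2.0.6, and deposited the raw counts used here. The annotation release, strand setting and treatment of reads with several positions are not given in the sources used here. Positions and sequences came from GENCODE vM39 (56310 of 57010 genes matched). Counts were tested with edgeR 4.0.16 in R 4.3.3 (TMM, quasi-likelihood test, treatment as the only term within a tissue, at least 10 counts in at least 50% of samples, Benjamini-Hochberg adjustment over all genes tested), checked on simulated data. The members, the lists and the rule for named members (most abundant, lowest p, largest tissue difference, most variable, most and least unique, next to the threshold) were chosen with earlier results of these data known. Log2 CPM for permutation tests used a prior count of 2. Alternatives used DESeq2 1.42.0, limma 3.58.1, other filters and scalings, a replicate block and left-out samples. The labels give a biological replicate number for each sample and do not name the mice. Same-numbered liver and kidney samples did not all correlate above 0.1, so numbers were not used as pairs in the main fits. The tests between tissues and of the interaction therefore treated the samples as independent, although each mouse gave 1 library per tissue. Their p-values carry this limit. Depth limits members with few counts. One of the members named by the rule is not reported here.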

Additional observations from a re-analysis of the deposited data

Results flagged for a closer look

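Groups of 4 or 6 samples were searched for a sample far from the others on the log2 scale, for the abundant members, those with the lowest p of 7c and the summed levels. In 68 groups this gave 10 marks, several of them on the same sample, and chance alone marks about 1 in 20 groups. Rpsa-ps10 was marked low in vehicle liver 2 (4.76 CPM, others 65.4 to 80.2) and in vehicle kidney 2 (27.5 CPM, others 90.2 to 105).

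Vehicle kidney 2 was also marked for its summed parent level (21353 CPM, others 9367 to 10448), for the summed level of the members without Rpsa-ps10 (418 CPM, others 185 to 212) and for the share of members in member and parent counts (2.04%, others 2.86% to 2.98%). In vehicle liver 4 the summed parent level was high, with 10764 CPM against 8977 to 9220.

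Single members were marked in 4 other samples. Rps6-ps4 was low in 7c liver 2 (6.37 CPM, others 10.7 to 13.6), Rpl15-ps6 high in 7c liver 3 (10.1 CPM, others 5.20 to 6.14), Rpl10a-ps1 high in 7c kidney 5 (21.2 CPM, others 9.97 to 13.2) and Rps4x-ps high in vehicle liver 1 (0.43 CPM, others 0.23).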

How the results depend on the processing

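For 7c against vehicle, the count of members past the threshold was 0 in each tissue and became 1, Rpsa-ps10, with DESeq2, the likelihood ratio test, no filter and both tissues in 1 fit, in liver and in kidney alike, and 1 in kidney without the 2 kidneys of highest parent level, an alternative chosen after seeing the data. It ranged from 0 to 1 with single samples left out in each tissue. The interaction and the liver-kidney correlation gave 0 throughout. Between vehicle kidney and liver, 8 members passed (53.4% of all genes), 33 with all 20 samples in 1 fit (72.9%) and 26 with library size only (61.2%, chosen after seeing the data), and 2 to 9 with a sample left out (44.9% to 52.5%). With a sample left out, the difference in mean log2 CPM of Rpsa-ps10 lay between -3.62 and -2.27 for liver, where it no longer passed without vehicle liver 1, 3 or 4, and between -2.99 and -2.35 for kidney. The share held by the 141 members that overlap no exon of a gene, in the table or not, which leaves out Rpsa-ps10, was 1.20% in 7c livers, 1.28% in vehicle livers, 1.48% in 7c kidneys and 1.60% in vehicle kidneys. Without Rpsa-ps10, also chosen after seeing the data, it was 1.58% in vehicle livers and 1.95% in vehicle kidneys. For all 163 members, single samples left out gave 1.53% to 1.60% in 7c livers and 2.03% to 2.35% in vehicle livers. In 7c kidneys they gave 1.89% to 1.95% and in vehicle kidneys 2.61% to 2.93%. The cause of these changes was not tested.

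With the replicate number as a block, 4 members passed between the tissues (50.7% of all genes), among them Rps24-ps3, Rps6-ps4 and Rpl3-ps1, while Rps15-ps2, Rps15a-ps7, Rpsa-ps12 and Rpl35a-ps3 lost the call. Rps7-ps2, which also passed, and Rps2-ps5, which did not, met the count minimum only through the kidneys, so that neither has a test here. With the block 0 members passed in the treatment and interaction tests, and the block changed no other count. Same-numbered liver and kidney samples had correlations of 0.011 to 0.259, and 8 of 10 livers correlated best with the kidney of their own number. Single genes also split by the same numbers in both tissues, as Rpsa-ps10 and Rpl3-ps1 did. Rpl26 had 6.62, 6.17 and 7.08 CPM in livers 7c 1, vehicle 1 and 7c 6, and 92.4 to 239 CPM in the others. In the same-numbered kidneys it had 11.8, 12.6 and 10.5 CPM, and 114 to 530 CPM in the others. All this comes from the data and not from the labels. Of 401 alternative values for named genes, 0 changed sign, 33 lost and 12 gained the threshold.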
